A study of Homo sapiens with 4 samples.

Results

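The E3 ubiquitin ligases CBL and CBLB and 8 genes of the BCR-ABL signalling route they act on (BCR, ABL1, CRKL, CRK, STAT5A, STAT5B, SH3KBP1 and LYN) were followed in K562-U2AF1 S34F cells given the U2AF1 inhibitor SF1-8. The 10 genes were chosen by name, and CBL was selected on its lower level with SF1-8 in these same data. For each symbol, the entry of the expression table that names it and has the highest mean count was used, which gave 10 of the 64873 entries, and all 10 were among the 26167 entries tested. K562 is an established human erythroleukemia line that carries the BCR-ABL1 fusion, and the cells of all 4 libraries overexpressed U2AF1 with the S34F mutation, 1 of the common mutations of this splicing factor in myelodysplastic syndromes. DMSO, the solvent control, was given in 2 of the libraries, and SF1-8, a small molecule that inhibits the U2AF homology motif domain of U2AF1, in the other 2, at 30 uM for 48 h. The promoter of the transgene and whether the line is 1 clone are not given in the sources used here. Total RNA without ribosomal RNA was sequenced, and total counts were between 45522905 in DMSO 1 and 67554610 in SF1-8 1.

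CBL and CBLB bind tyrosine-phosphorylated proteins and attach ubiquitin to them, which sends receptors and kinases to endocytosis and degradation. BCR-ABL is a constantly active tyrosine kinase made of the start of BCR and most of ABL1. It binds and phosphorylates the adaptors CRKL, GRB2 and CBL, it activates the transcription factors STAT5A and STAT5B, and the SRC family kinase LYN acts beside it. SH3KBP1, also called CIN85, links CBL to the endocytic machinery. The comparison of SF1-8 with DMSO asks which of these RNAs differ in level after treatment with this inhibitor.

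The sequences around the fusion show why the 2 fused genes cannot be read apart from the fusion in this table. The K562 fusion joins exon 14 of BCR (chr22:23290384-23290413 for the 30 bases shown) to exon 2 of ABL1 (chr9:130854064-130854093), both on the plus strand of GRCh38. The table has an entry for BCR and an entry for ABL1, so RNA of the fusion adds to both, and levels of the fusion and of the unfused genes cannot be told apart.
end of BCR exon 14: actcagccactggatttaagcagagttcaa
start of ABL1 exon 2: aagcccttcagcggccagtagcatctgact

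The 3 pairs of related genes in the set differ in how far a short read can tell them apart. The longest run of bases shared by the coding sequences of CBL and CBLB is 20 bases, in CBL exons 7 and 8 and CBLB exons 8 and 9, and that of CRKL and CRK is 21 bases, in exon 1 of each. No 50-base window was shared within either pair. STAT5A and STAT5B instead share an identical run of 429 bases, and 21.7% of the 50-base windows of STAT5A are also in STAT5B. The run includes the whole of exon 8 of STAT5A (chr17:42300130-42300281, plus strand), which is base for base exon 7 of STAT5B (chr17:42219312-42219463, minus strand). Reads within it fit both genes, so the split of counts between STAT5A and STAT5B is uncertain.
run in CBL and CBLB: caggaacaatatgaattata
run in CRKL and CRK: gtctcccactacatcatcaac
exon in STAT5A and STAT5B: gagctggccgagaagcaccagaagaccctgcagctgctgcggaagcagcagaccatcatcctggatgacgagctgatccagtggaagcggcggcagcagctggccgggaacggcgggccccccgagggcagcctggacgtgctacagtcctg

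In DMSO, the level of the 10 genes spanned from CRKL at the top to SH3KBP1 at the bottom. Levels are given as FPKM, counts scaled by the authors for gene length and library depth. CRKL, an adaptor and the main substrate of BCR-ABL, had 130.4 and 129.4 FPKM with DMSO, above 99.5% of the entries tested. STAT5A (59.0 and 64.3), STAT5B (29.3 and 30.3) and ABL1 (26.1 and 29.5) followed, and the last 2 overlapped. LYN had 16.5 and 16.3 FPKM, BCR 13.9 and 14.4, CRK 14.2 and 13.1 and CBL 11.3 and 11.2. Of these neighbours, only BCR and CRK overlapped. CBLB (0.716 and 0.685) and SH3KBP1 (0.279 and 0.266) were below 1 FPKM. With SF1-8 the order was the same except that CRK and BCR, which still overlapped, changed places, and STAT5B and ABL1 no longer overlapped. The order depends on the length used for each entry, read from the ratio of its count to its FPKM. For BCR it was 21153 bases, against 12389 bases covered by the exons of its GENCODE transcripts, and for ABL1 8493 against 6276. On the latter lengths, an alternative added after the data had been seen, BCR had 23.7 and 24.6 FPKM with DMSO and lay above LYN, and ABL1 had 35.3 and 39.9 and lay above STAT5B. On the length of the longest coding transcript, BCR had 41.5 and 43.0 FPKM with DMSO and overlapped ABL1 at 38.4 and 43.5. CBLB had 1.31 and 1.26 FPKM with DMSO on that length, above 1 FPKM. The length was nearly the same in every library, so comparisons of SF1-8 with DMSO within a gene do not turn on it.

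**Figure D1:**
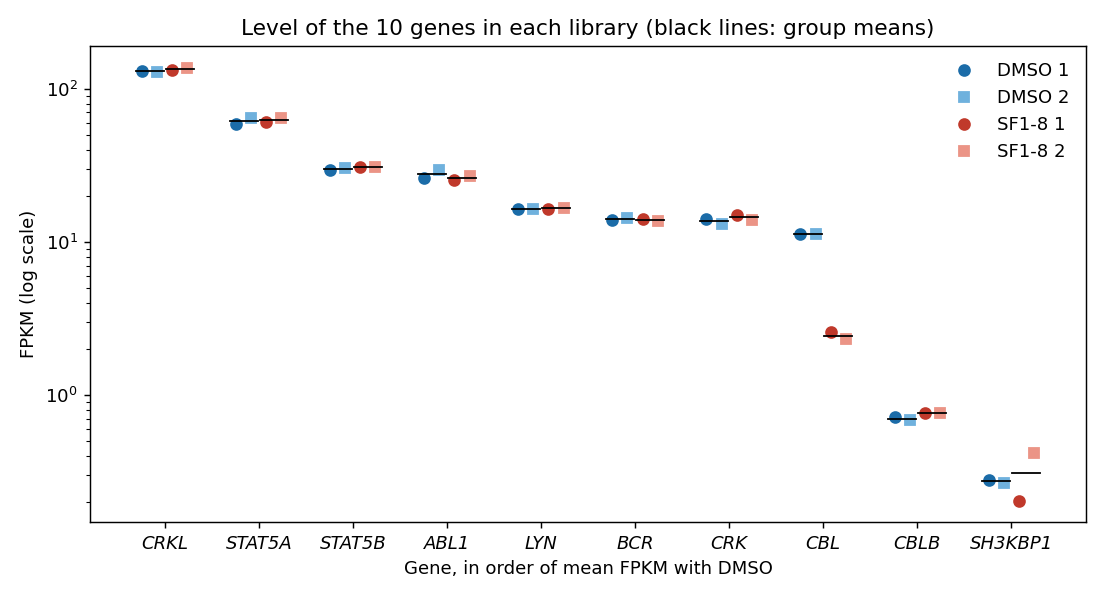
FPKM on a log axis for each of the 10 genes, ordered by mean FPKM with DMSO, with a point for each of the 4 libraries and black lines at the group means. CBL is the gene whose SF1-8 libraries (2.57 and 2.32) lie well apart from its DMSO libraries (11.3 and 11.2), and SH3KBP1 has the widest spread within SF1-8 (0.205 and 0.417).

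CBL (chr11:119206298-119313926, plus strand) had 11.3 and 11.2 FPKM in DMSO 1 and 2 and 2.57 and 2.32 FPKM in SF1-8 1 and 2. The groups were far apart and the libraries within each were close. CBL was 4.52-fold lower with SF1-8 (log2 fold change -2.18, SE 0.09, 95% interval -2.41 to -1.94). Since its lower level selected the gene, no test is given, and these values are a description. Among the 14086 tested entries with a mean of at least 1 FPKM, CBL had the 16th lowest log2 fold change. Across all 26167 entries, p-values from edgeR's quasi-likelihood test, adjusted by the Benjamini-Hochberg method, called 11 at an adjusted p under 0.05 (0.0420% of those tested), 6 lower and 5 higher with SF1-8. That number was 143 with DESeq2, 0 with limma on log2(FPKM + 1) and 0 to 30 with 1 library left out (0 without DMSO 1), so this background share is itself uncertain. Because the samples are bulk cultures, fewer cells with the RNA and less RNA per cell cannot be told apart.

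CBL has 5 coding transcripts in the GENCODE annotation used with these coordinates, and they differ widely in length. ENST00000264033, with 16 exons, is 11231 bases long, of which 8368 lie after the stop codon. ENST00000637974, with 17 exons, is 3030 bases long and ends in a coding exon of its own further along the gene, so the former is 3.71 times as long. The last 60 coding bases of ENST00000264033 (chr11:119299722-119299781, plus strand) are shown, with the stop codon in capitals, because its long part after the stop codon begins there.
end of ENST00000264033: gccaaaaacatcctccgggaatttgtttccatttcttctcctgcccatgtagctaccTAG

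The ratio of count to FPKM gives the length that the authors' scaling used for an entry. For CBL it was 11716 bases in both DMSO libraries and 11725 and 11729 bases in the SF1-8 libraries, close to the 11740 bases covered by the exons of all its transcripts together. The length was thus nearly the same in the 4 libraries. A gene-level value of this kind counts a short transcript as less FPKM than a long one at the same number of molecules, so a lower number of CBL molecules and a shift to shorter transcripts cannot be told apart here.

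CBLB (chr3:105655461-105869422, minus strand), the paralog of CBL with the same ligase function, had 0.716 and 0.685 FPKM with DMSO and 0.764 and 0.762 with SF1-8. Both SF1-8 libraries were above both DMSO libraries, by little. The log2 fold change was 0.15 (SE 0.13, 95% interval -0.19 to 0.49), and the adjusted p was 0.970 by edgeR's quasi-likelihood test. CBL made up 94.1% and 94.2% of the summed FPKM of the pair with DMSO and 77.1% and 75.3% with SF1-8. Most of the pair's RNA was still CBL, and the summed FPKM was 12.04 and 11.92 with DMSO and 3.33 and 3.08 with SF1-8. The share depends on the length used for each gene. On the length of the longest coding transcript, CBLB had 1.31 and 1.26 FPKM with DMSO and 1.40 and 1.39 with SF1-8. CBL had 11.8 and 11.7 with DMSO and 2.68 and 2.42 with SF1-8 on that length, so its share would be smaller in both groups. The share also moves with the CBL level that chose the set and has no test.

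BCR (chr22:23179704-23318037, plus strand), whose own protein is a GTPase regulator and which gives BCR-ABL its start, had 13.9 and 14.4 FPKM with DMSO and 14.04 and 13.67 with SF1-8. The groups overlapped, and the log2 fold change was -0.0042 (SE 0.07, 95% interval -0.19 to 0.18). ABL1 (chr9:130713016-130887675, plus strand), the kinase part of the fusion, had 26.1 and 29.5 FPKM with DMSO and 25.4 and 26.8 with SF1-8. These groups overlapped too, with a log2 fold change of -0.07 (SE 0.10, 95% interval -0.33 to 0.19). Its entry also names AL359092. The adjusted p values by edgeR's quasi-likelihood test were 0.998 for BCR and 0.970 for ABL1.

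The adaptor CRKL (chr22:20917407-20953747, plus strand) had 130.4 and 129.4 FPKM with DMSO and 132.9 and 137.3 with SF1-8. The groups did not overlap, but the log2 fold change was 0.08 (SE 0.06, 95% interval -0.07 to 0.23), with an adjusted p of 0.970 by edgeR's quasi-likelihood test. CRK (chr17:1420689-1463162, minus strand), the related adaptor, had 14.2 and 13.1 FPKM with DMSO and 14.95 and 13.90 with SF1-8, which overlapped. The log2 fold change of CRK was 0.11 (SE 0.09, 95% interval -0.11 to 0.33). CRKL made up 90.2% and 90.8% of the pair's FPKM with DMSO and 89.9% and 90.8% with SF1-8, a difference of -0.167 percentage points (exact permutation test, two-sided p = 0.667). With 2 libraries against 2, such a test cannot give a p under 0.333.

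The transcription factor STAT5A (chr17:42287547-42311943, plus strand) had 59.0 and 64.3 FPKM with DMSO and 60.7 and 64.0 with SF1-8. The SF1-8 values lay between the DMSO values, and the log2 fold change was 0.04 (SE 0.09, 95% interval -0.18 to 0.27). STAT5B (chr17:42199177-42276406, minus strand), its near-identical neighbour, had 29.3 and 30.3 FPKM with DMSO and 30.7 and 30.8 with SF1-8. Those groups did not overlap, with a log2 fold change of 0.07 (SE 0.07, 95% interval -0.12 to 0.26) that was within its error. STAT5A made up 66.8% and 68.0% of the pair's FPKM with DMSO and 66.4% and 67.5% with SF1-8 (difference -0.423 points, exact permutation test, two-sided p = 0.667). By that edgeR test, the adjusted p was 0.979 for STAT5A and 0.970 for STAT5B. The share rests on the split of the identical bases shown above.

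The kinase LYN (chr8:55879835-56014168, plus strand) had 16.5 and 16.3 FPKM with DMSO and 16.4 and 16.6 with SF1-8. It varied least of the 10 genes over the 4 libraries, with a coefficient of variation of 0.706%, and its log2 fold change was 0.04 (SE 0.07, 95% interval -0.14 to 0.22). SH3KBP1 (chrX:19533977-19887600, minus strand), the CBL-binding adaptor, had 0.279 and 0.266 FPKM with DMSO and 0.205 and 0.417 with SF1-8, from 94 to 196 counts. The SF1-8 libraries lay on either side of the DMSO libraries. SH3KBP1 had a log2 fold change of 0.22 (SE 0.39), with a 95% interval of -0.78 to 1.22, which spans 0.582 to 2.32 times the DMSO level.

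Of the 9 genes other than CBL, 0 passed the adjusted threshold of edgeR's quasi-likelihood test (adjusted p from 0.970 to 0.998), and DESeq2 and limma also called 0 of 9. At an unadjusted p under 0.05, 0 of 9 passed, against 4.33% of all entries tested. The fold change was above 0 for 7 and below 0 for 2, with a median of 0.07 on the log2 scale beside -0.01 over all entries. Both SF1-8 libraries were above both DMSO libraries for 3 of the 9, namely CBLB, CRKL and STAT5B, and below them for none of the 9. Over all entries, 14.2% were above in this way and 20.0% below. With limma on log2(TPM + 1) the median was -0.13 over 32357 entries, beside -0.02 with limma on log2(FPKM + 1) over 27569 entries, and all of the 9 genes except SH3KBP1 were below 0 in the former, of which CBLB, CRKL, CRK, STAT5A, STAT5B and LYN were above 0 in the edgeR fit.

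**Figure D2:**
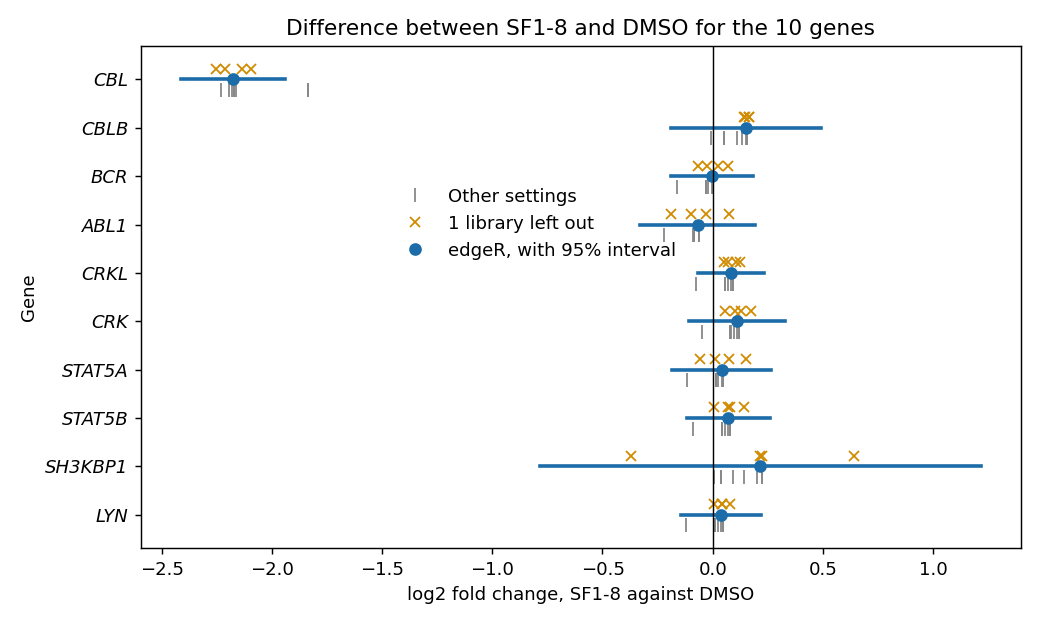
log2 fold change of SF1-8 against DMSO for each of the 10 genes, with blue points and 95% intervals from edgeR, grey marks for other settings and crosses for fits with 1 library left out. CBL stands near -2.18 under most settings, and the intervals of the other 9 genes include 0.

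**Figure D3:**
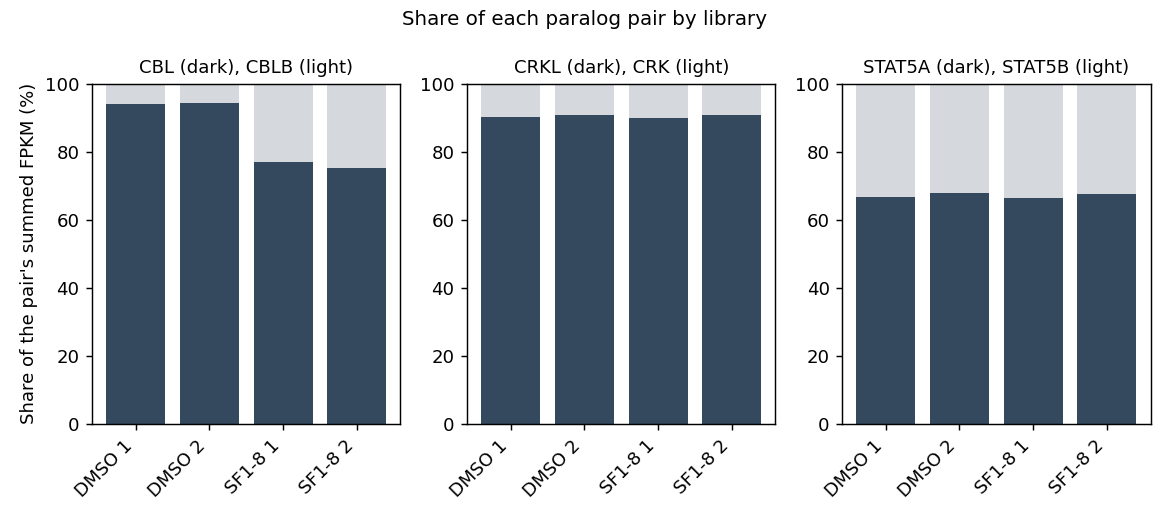
Share of the summed FPKM of each related pair, in percent, for each of the 4 libraries, with the first gene dark and the second light. CBL goes from 94.1% and 94.2% to 77.1% and 75.3% of its pair, while CRKL stays between 89.9% and 90.8% and STAT5A between 66.4% and 68.0%. The shares depend on the lengths used in the authors' scaling.

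The assembly also holds 11 further entries named after BCR, ABL1, CRKL or LYN. Both of those of BCR and all 5 of ABL1 lie on the opposite strand within intron 1, so they are not exons of BCR or ABL1. The longest of those of ABL1 also names AL359092. The counts of the 5 in ABL1 summed to 88.2% and 113% of the count of ABL1 itself with DMSO and to 132% and 109% with SF1-8. Those of the 2 in BCR came to 22.4% and 19.5% of BCR with DMSO and 23.6% and 22.1% with SF1-8. Whether the authors' counting used strand is not given in the sources used here, and without it reads of the intron and of an antisense RNA cannot be told apart.

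Among these entries, the short one in BCR intron 1 (chr22:23193031-23195605) had 1.57 and 1.16 FPKM with DMSO and 2.21 and 2.10 with SF1-8. Both SF1-8 libraries were higher, with a log2 fold change of 0.69 (SE 0.20) and an adjusted p of 0.970 by edgeR's quasi-likelihood test (unadjusted 0.0177). An entry in ABL1 intron 1 (chr9:130810778-130815199) had 1.75 and 2.06 FPKM with DMSO and 1.33 and 1.19 with SF1-8. It was lower in both SF1-8 libraries, with a log2 fold change of -0.57 (SE 0.26) and the same adjusted p of 0.970 by that edgeR test. In the longest ABL1 entry (chr9:130722087-130797189), DMSO 1 stood apart with 2.25 FPKM against 4.62, 4.77 and 4.14 in DMSO 2, SF1-8 1 and SF1-8 2. These entries were named after their values had been seen.

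**Figure D4:**
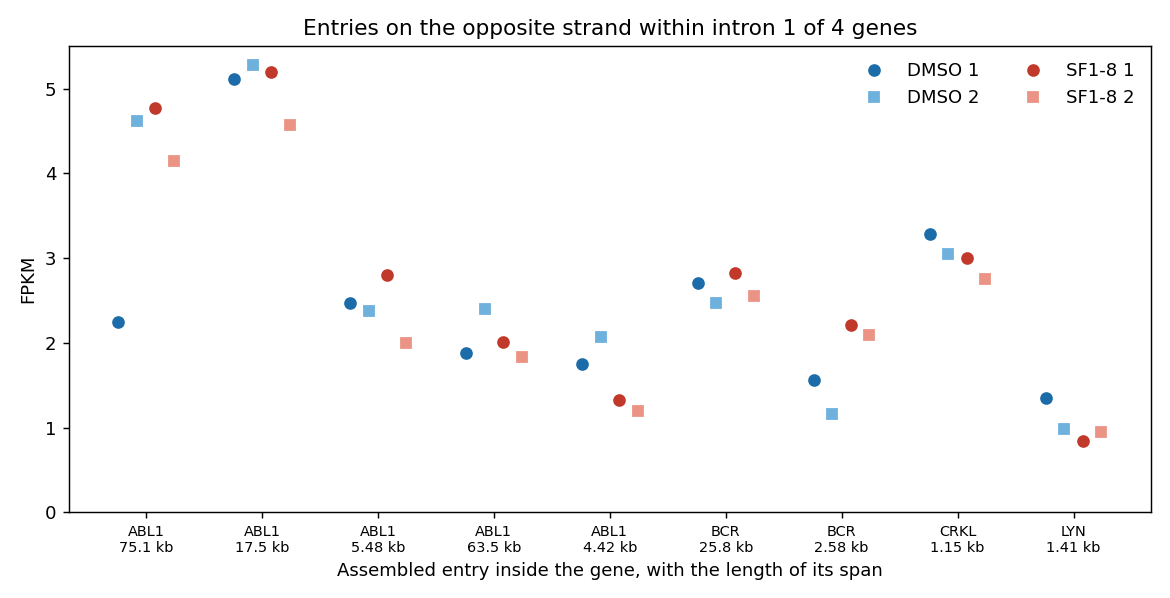
FPKM in each of the 4 libraries for the 9 tested entries that lie on the opposite strand within intron 1 of ABL1, BCR, CRKL or LYN, labelled with the length of their span. The short BCR entry is higher in both SF1-8 libraries (2.21 and 2.10) than in the DMSO libraries (1.57 and 1.16), and DMSO 1 is lowest in the longest ABL1 entry (2.25).

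The wider route was described with 6 lists of 111 genes, of which 96 were tested (GRB2 stands in 2 lists). None passed the adjusted threshold of edgeR's quasi-likelihood test, and 2 of the 96 (2.08%) passed an unadjusted p under 0.05, below the 4.33% of all entries. By the fit, 34 were lower and 62 higher, with a median log2 fold change of 0.06. With limma on log2(FPKM + 1) and no filter the number was 5, where 3.47% of all entries passed, and without DMSO 2 it was 7, where 7.96% passed.

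YES1, a SRC family kinase related to LYN, was 1 of the 2. It had 25.3 and 20.2 FPKM with DMSO and 10.1 and 13.4 with SF1-8. Both SF1-8 libraries were below both DMSO libraries, with a log2 fold change of -0.92 (SE 0.16) and an adjusted p of 0.606 by edgeR's quasi-likelihood test (unadjusted 0.00205). UBE2D1, a ubiquitin-conjugating enzyme that works with E3 ligases such as CBL, was the other, at 4.27 and 4.31 FPKM with DMSO and 5.83 and 5.09 with SF1-8. UBE2D1 had a log2 fold change of 0.38 (SE 0.13), with an adjusted p of 0.970 by the same edgeR test (unadjusted 0.0318).

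Among the 24 partners and regulators of CBL, 19 were tested, of which 7 were lower and 12 higher, and 1 (UBE2D1) passed the unadjusted threshold. The ubiquitin-conjugating enzyme UBE2L3, which is known to pair with CBL, was the highest of them, at 97.6 and 89.1 FPKM with DMSO and 90.2 and 92.1 with SF1-8. UBE2D2, of the same family as UBE2D1, had 28.5 and 28.0 with DMSO and 29.4 and 32.2 with SF1-8. GRB2, the adaptor that binds both CBL and BCR-ABL, had 25.5 and 25.2 with DMSO and 25.6 and 26.3 with SF1-8. The 3 log2 fold changes lay between -0.0063 and 0.15.

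Of the 31 adaptors and members of the RAS route, 30 were tested, 12 lower and 18 higher, and 0 passed the unadjusted threshold. The GTPase NRAS had 49.4 and 47.0 with DMSO and 48.6 and 51.7 with SF1-8. The phosphatase SHP2, encoded by PTPN11, had 41.9 and 41.2 with DMSO and 42.1 and 43.8 with SF1-8. Both had a log2 fold change of 0.08 (SE 0.07 for NRAS and 0.06 for PTPN11).

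Of the 19 kinases of the ABL, SRC and JAK families, 15 were tested, 3 lower and 12 higher, and YES1 alone passed the unadjusted threshold. CSK, the kinase that restrains SRC family members such as LYN, had 18.8 and 19.6 FPKM with DMSO and 18.3 and 18.4 with SF1-8. The JAK family kinase TYK2 had 8.51 and 8.90 with DMSO and 9.15 and 9.01 with SF1-8. Both differences were small, with log2 fold changes of -0.04 (SE 0.08) and 0.09 (SE 0.08).

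Of the 5 other STAT genes, 4 were tested, and 0 passed. STAT3 had 16.2 and 16.3 FPKM with DMSO and 16.4 and 16.7 with SF1-8. STAT2 had 6.75 and 6.90 with DMSO and 6.47 and 5.73 with SF1-8, and STAT6 5.06 and 4.83 with DMSO and 4.77 and 5.30 with SF1-8. All were well below STAT5A.

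Target genes of STAT5 give a readout of the route below the kinase. Of 16 listed, 15 were tested, 4 lower and 11 higher, and 0 passed the unadjusted threshold. The kinase gene PIM1 had 89.5 and 88.0 FPKM with DMSO and 90.4 and 87.4 with SF1-8, and its relative PIM2 29.1 and 30.9 with DMSO and 33.0 and 30.3 with SF1-8. ID1, an inhibitor of differentiation factors, had 23.7 and 21.7 with DMSO and 23.2 and 22.5 with SF1-8. The groups overlapped for these 3 genes, the highest of the list. Of the 15, 3 were lower and 4 higher in both SF1-8 libraries, against 20.0% and 14.2% of all entries.

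Tyrosine phosphatases, PP2A and its regulators, and other genes known to restrain BCR-ABL made up 17 genes, of which 14 were tested, 7 lower and 7 higher, and 0 passed. SET, an inhibitor of the phosphatase PP2A, was the highest, at 222.6 and 206.0 FPKM with DMSO and 222.4 and 239.0 with SF1-8. PTPN1, a tyrosine phosphatase that acts on BCR-ABL, had 29.8 and 29.8 with DMSO and 30.9 and 30.9 with SF1-8. PPP2R1A, the scaffold subunit of PP2A, had 17.5 and 15.8 with DMSO and 15.9 and 14.9 with SF1-8. These 3 log2 fold changes lay between -0.08 and 0.13.

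**Figure D5:**
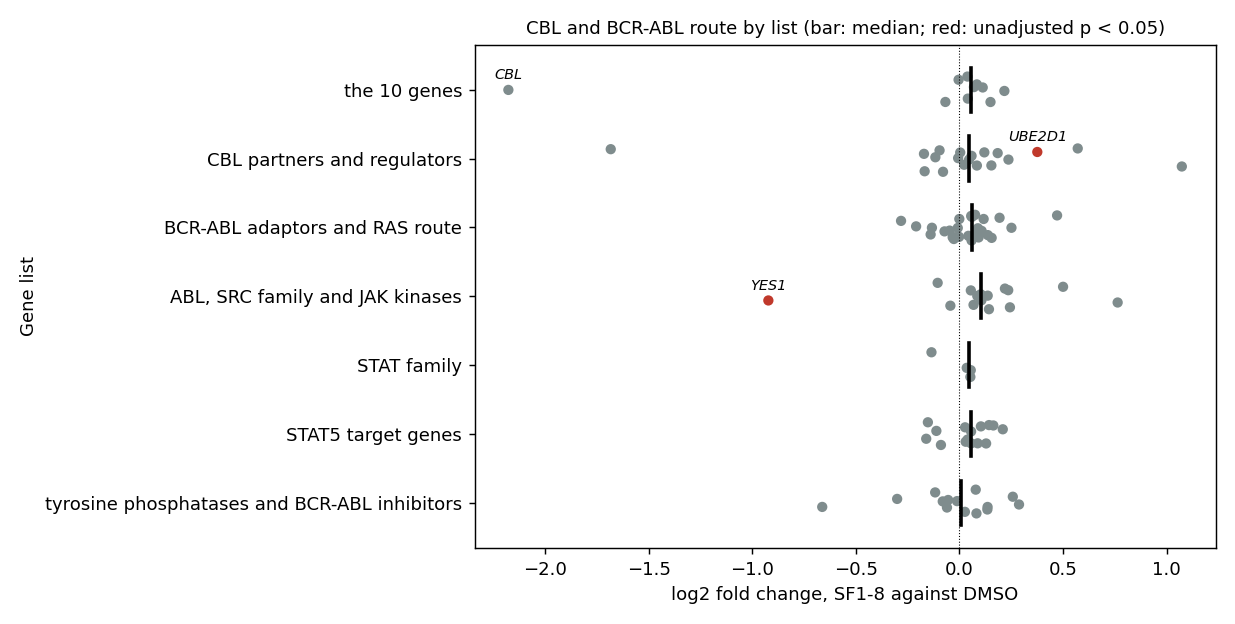
log2 fold change of SF1-8 against DMSO for the tested genes of each list, a point for each gene, with the list's median as a black bar and genes at an unadjusted p under 0.05 in red. CBL, which has no test, lies at -2.18, YES1 at -0.92 and UBE2D1 at 0.38, and the medians lie between 0.0073 and 0.11.

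The 10 tested entries nearest to CBL, 5 on each side and within 100.6 kb, had a median log2 fold change of 0.05, with 3 lower and 4 higher in both SF1-8 libraries (20.0% and 14.2% of all entries). RNF26, a ubiquitin ligase gene 20.6 kb away, had 22.8 and 24.2 FPKM with DMSO and 23.0 and 23.3 with SF1-8. Of the 10, 1 passed an unadjusted p under 0.05 in edgeR's quasi-likelihood test, against 4.33% of all entries tested. This was a short second entry named USP2 (chr11:119377261-119377648) with no strand given. It had 34 and 26 counts with DMSO and 9 and 8 with SF1-8 (log2 fold change -2.08, SE 0.72, adjusted p 0.970 by that edgeR test). This entry met the count filter only through DMSO and could only be called lower, so its call is not comparable with the share of all entries. Of the 10 entries around BCR and the 10 around ABL1, 0 passed that threshold, and around each gene 1 was lower and 3 were higher in both SF1-8 libraries. The smallest p there belonged to RAB36 beside BCR (log2 fold change -0.93, SE 0.51) and QRFP beside ABL1 (0.39, SE 0.24).

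The 5 entries whose values over the 4 libraries were most like those of CBL were found by the distance between log2 profiles, each centred on its own mean, among 14085 other entries with a mean of at least 1 FPKM. Nearest was CBLL1 (distance 0.254), a ligase gene named for its likeness to CBL that belongs to the RNA methylation complex. It had 12.4 and 10.8 FPKM with DMSO and 2.96 and 2.82 with SF1-8. The next were the entry of NPIPB5 and AC106788 (0.263), AC009053 (0.286), UBBP4 (0.336) and TYW3 (0.509), an enzyme of transfer RNA modification with 10.2 and 10.4 FPKM with DMSO and 3.49 and 2.79 with SF1-8. These were chosen for their likeness, which is a description over 4 libraries.

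Markers of K562 itself and of other cell types were set beside these values. The 10 erythroid and megakaryocytic marker entries were all tested, and 0 passed the unadjusted threshold. By the fit, 8 were lower and 2 higher, and 4 were lower and 0 higher in both SF1-8 libraries (20.0% and 14.2% of all entries). They summed to 303.9 and 304.8 FPKM with DMSO and 277.1 and 296.5 with SF1-8. Of 10 fibroblast and stromal markers, 9 were tested and 7 were lower with SF1-8. Of the 9, 5 (55.6%) passed an unadjusted p under 0.05, all lower, against 4.33% of all entries, and 0 passed the adjusted threshold in edgeR's quasi-likelihood test. The list summed to 13.6 and 8.23 FPKM with DMSO and 6.06 and 4.26 with SF1-8. This sum includes PDGFRA, whose entry is joined with FIP1L1 and was higher in both SF1-8 libraries (3.33 and 3.22 FPKM with DMSO, 3.48 and 3.67 with SF1-8). The other 8 tested markers summed to 10.2 and 5.01 FPKM with DMSO and 2.57 and 0.594 with SF1-8. The 5 that passed the unadjusted threshold were COL1A2, COL3A1, DCN, LUM and PDGFRB. The collagen gene COL1A1, not among them (unadjusted p 0.0634 by that edgeR test), had 5.39 and 2.60 FPKM with DMSO and 1.21 and 0.0982 with SF1-8. Of the 5 that passed, LUM had 27 and 19 counts with DMSO and 0 and 0 with SF1-8. DCN had 62 and 18 with DMSO and 4 and 0 with SF1-8, and PDGFRB 27 and 12 with DMSO and 4 and 3 with SF1-8. These 3 met the count filter only through DMSO and could only be called lower. The 55.6% is therefore not comparable with the share of all entries. No stromal marker was at 0 in all 4 libraries. The summed level was thus lower in the libraries in which CBL was lower, though PDGFRA and THY1 were not lower by the fit, and the part of these markers in the result was not tested. Of 12 lymphoid and mature myeloid markers, 7 were tested and 0 passed, MPO and ELANE were at 0 in all libraries, and the sums were 42.8 and 35.4 FPKM with DMSO and 46.3 and 39.9 with SF1-8, most of it from an entry that joins CD68 with EIF4A1. The other 6 tested markers summed to 11.8 and 9.68 FPKM with DMSO and 9.14 and 8.73 with SF1-8, so the direction of the sum turns without that entry. Among them, the T cell gene CD3E had 0.270 and 0.116 FPKM with DMSO and 0.0338 in SF1-8 1, and it was listed at 0 in SF1-8 2.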

How the data were processed

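RNA was sequenced in 4 libraries, 2 with DMSO and 2 with SF1-8, grouped by the sample labels. The submitters' processing notes name cutadapt, FastQC, Bowtie2, HISAT2, StringTie and the build hg38, with no versions. The authors deposited FPKM, which they scaled for length and depth and in which 0.0001 stands for 0, and estimated counts, whole numbers without normalization. The 2095 entries without a gene name held 0.372% of the counts and were left out, and 2088 entries name more than 1 gene. Counts were normalized by TMM, filtered by filterByExpr with a minimum count of 10 and tested with edgeR 4.0.16's quasi-likelihood test in R 4.3.3, with p-values adjusted by the Benjamini-Hochberg method over 26167 entries. The fit was tested on simulated data. Alternatives were DESeq2 1.42.0, limma 3.58.1, other scalings and filters, a replicate block and leaving out each library. The labels do not say that the libraries of a group come from separate cultures, so p-values measure the spread between these samples, which may be technical. Because the counts are estimates, no counting error is given. Named genes were all 10 members, the 3 highest genes of each list, those with an unadjusted p under 0.05, the 5 profiles most like CBL and the neighbours with the smallest p. The members and lists were chosen with earlier results of these data known. Transcript structures and sequences are from GENCODE version 29 on GRCh38. Protein sequences were not used here, and 1 of the highest genes of the route lists and 1 sequence are left out of the text.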

Additional observations from a re-analysis of the deposited data

How the results depend on the processing

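CBL was lower with SF1-8 under every alternative run, with a log2 fold change of -1.84 for limma on log2(FPKM + 1), with or without the filter on low FPKM, and from -2.25 to -2.10 when 1 library was left out. Of 108 values of the other 9 genes under 12 alternatives, 95 kept their direction, 13 reversed and none was called. With limma on log2(TPM + 1) the log2 fold change was -0.0095 for CBLB, -0.0775 for CRKL, -0.0500 for CRK, -0.12 for STAT5A, -0.0898 for STAT5B and -0.12 for LYN. The median over all entries of that fit was -0.13. BCR had 0.0028 with DESeq2 and 0.0033 without the filter on low counts. With 1 library left out, BCR ranged from -0.0684 to 0.0683, ABL1 from -0.191 to 0.0719, STAT5A from -0.0585 to 0.152 and SH3KBP1 from -0.37 to 0.64. The shares of CRKL and STAT5A in their pairs also changed the sign of their small difference when 1 library was left out. The number of all entries past the adjusted threshold was 143 with DESeq2, 31 without the filter on low counts, 0 with limma on log2(FPKM + 1) or log2(FPKM + 0.1), 1 with limma on TPM and 39 with limma and no filter. It was 0 without DMSO 1, and 0 to 30 over the libraries left out. The number of list genes at an unadjusted p under 0.05 was 1 with limma on TPM, 5 with limma and no filter, and 3 to 7 over the libraries left out (7 without DMSO 2). The replicate block gave 0 of all entries past the adjusted threshold. It gave 1 list gene at an unadjusted p under 0.05, where 3.71% of all entries passed, and it changed the call of none of the 9 genes. Deviations of libraries with the same number correlated at 0.0165, so the numbers were not taken as pairs. The cause of these shifts was not tested. With 2 libraries a group, the interval of SH3KBP1 is the widest, from 94 to 196 counts.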
